A study of Mus musculus with 12 samples.

Results

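The CDK inhibitors and the Gadd45 genes were followed through terminal erythroid differentiation in mouse bone marrow. The group comprised 10 genes, taken by their symbols: the Cip/Kip inhibitors Cdkn1a, Cdkn1b and Cdkn1c, the INK4 inhibitors Cdkn2a, Cdkn2c and Cdkn2d, the CDK phosphatase Cdkn3, and Gadd45a, Gadd45b and Gadd45g. Each was found once among the 29838 genes of the expression table. The table held 12 libraries of wild-type (WT) erythroblasts, 3 each of proerythroblasts (Pro), basophilic (Baso), polychromatic (Poly) and orthochromatic (Ortho) erythroblasts. Per the study's methods, the cells came from C57BL/6 males of 8 weeks, were gated as negative for CD45, CD11b and GR1, and were sorted as CD44 high and Ter119 low (Pro) or by CD44 against cell size among Ter119-positive cells. All groups were untreated and carried no engineered allele, and Pro was the reference stage. The labels number the replicates 1 to 3 within each stage without saying whether they were separate mice, so p-values measure the spread between these libraries, which may be technical.

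Cyclin-dependent kinases (CDKs) drive the cell through its division cycle when bound to cyclins, and the inhibitors hold them back. INK4 proteins bind CDK4 and CDK6 and keep them from cyclin D, whereas Cip/Kip proteins bind cyclin-CDK complexes, above all those of CDK2, and Cdkn3 removes an activating phosphate from CDK2. Gadd45 proteins are small stress-induced proteins that bind the replication clamp PCNA and the kinase MAP3K4, and have been linked to growth arrest, DNA repair and DNA demethylation. Erythroblasts pass through a short series of divisions while they fill with hemoglobin, then leave the cycle and expel the nucleus, so these genes stand where division and maturation meet.

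The libraries were checked against their labels with markers. The erythroid markers Klf1, Gata1, Epor and the adult globins exceeded a mean of 1 FPKM in every stage, but moved in different directions. Mean Klf1, Gata1 and Epor fell from 320, 131 and 149 FPKM in Pro to 69.3, 30.9 and 46.5 FPKM in Ortho, whereas the globins rose. FPKM counts fragments relative to transcript length and to all mapped fragments, a scale on which genes can be compared. Hemoglobin genes took 6.98 to 10.6% of the summed FPKM in Pro and 33.2 to 36.7% in Baso. Their share was 34.8 to 37.6% in Poly and 47.2 to 52.6% in Ortho. A sum of 4 late erythroid markers lay at 530 to 858 FPKM in Pro and 4149 to 4258 FPKM in Ortho. The 4 early erythroid markers (Kit, Gata2, Myb and Myc) did not fall as a sum, at 107 to 136 FPKM in Pro and 131 to 149 FPKM in Ortho. Gata2 stood at 14.6, 13.5 and 10.9 FPKM in Pro and 31.6, 28.6 and 22.1 FPKM in Ortho. Myb also had a higher mean in Ortho, at 57.1 FPKM in Pro and 73.9 FPKM in Ortho. Kit and Myc had lower means there, at 17.8 and 34.7 FPKM in Pro and 14.5 and 22.7 FPKM in Ortho. Markers of other cells moved with stage too, although the gate removes cells with CD11b or GR1 on their surface. The 9 neutrophil markers, all detected, summed to 6856 to 8562 FPKM in Pro and 11784 to 13814 FPKM in Baso, and to 15140 to 17938 FPKM in Poly and 13453 to 16715 FPKM in Ortho. The 6 B cell markers summed to 307 to 447 FPKM in Pro and 806 to 1141 FPKM in Ortho, and the 7 macrophage markers to 17.0 to 20.9 FPKM and 35.0 to 42.3 FPKM. Only 3 of these 7 had a mean of at least 1 FPKM in Pro or Ortho. Of them, Csf1r had means of 11.7 FPKM in Pro and 26.4 FPKM in Ortho. Adgre1 stood at 3.84 and 7.85 FPKM, whereas Vcam1 stood at 3.03 and 2.25 FPKM. The 6 megakaryocyte and platelet markers summed to 71.5 to 129 FPKM in Pro and 38.9 to 47.8 FPKM in Ortho, although Itga2b among them rose from a mean of 18.9 to 25.0 FPKM. The 5 T and NK cell markers summed to 22.8 to 30.7 FPKM in Pro and 37.4 to 42.3 FPKM in Ortho, with 2 of them at 0 in every Ortho library. The part of these cells in the results below was not tested. Ortho replicates 2 and 3 are called only erythroblasts in their cell type label and were placed by title. In sorted bulk samples, fewer cells of a type and less RNA per cell cannot be told apart.

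Of the 10 genes, 8 passed the filter on low values (at least 1 FPKM in at least 3 libraries), and these 8 were above 4 FPKM in every library. Cdkn1c and Cdkn2a did not pass and were not tested. A gene was called when its limma adjusted p was under 0.05 and its log2 fold change, taken on FPKM + 1, reached 1 in size. Among the 12994 genes tested, 6 of the 8 were called in at least 1 comparison between stages (Cdkn1b, Cdkn2c, Cdkn2d, Cdkn3, Gadd45a and Gadd45g), against 34.9% of all genes tested, whereas Cdkn1a and Gadd45b were called in none. The moderated F-test for any difference among the 4 stages gave an adjusted p under 0.05 for 7 of the 8, with Cdkn1a the exception, against a background of 78.4% of all genes tested.

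**Figure D1:**
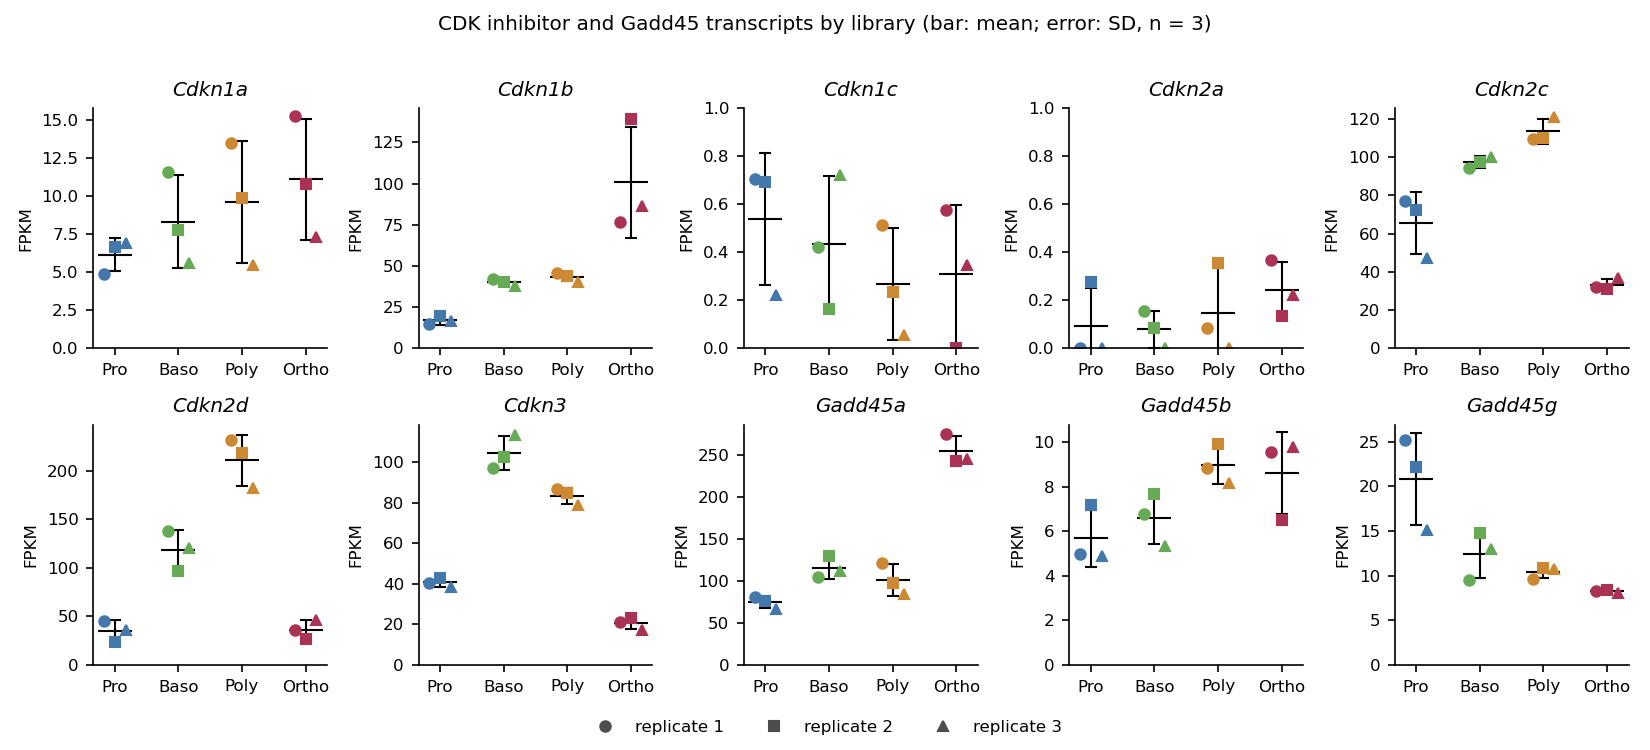
FPKM of the 10 genes in each of the 12 libraries, 1 panel a gene, with stage on the x axis and its own FPKM axis from 0. Symbols are replicate numbers, horizontal bars stage means and error bars SD (n = 3). Cdkn1b and Gadd45a stand highest in Ortho, Cdkn2c and Cdkn2d highest in Poly, Cdkn3 highest in Baso and Gadd45g highest in Pro, while Cdkn1c and Cdkn2a stay below 1 FPKM.

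The sequences just upstream of the annotated starts of the 4 genes with the largest called changes between stages are given first, since these changes ran in different directions. They are from RefSeq, build GRCm38.p6, and are written 5′ to 3′ on the gene's strand. Each ends just before the RefSeq or the GENCODE start, whichever lies further upstream, and positions are counted from that end. For Cdkn2d and Gadd45a that end is the GENCODE start, upstream of the RefSeq start. Cdkn1b is at chr6:134920151-134920400, plus strand, Gadd45a at chr6:67037458-67037657, minus strand, Cdkn2d at chr9:21291408-21291459, minus strand, and Cdkn3 at chr14:46760291-46760540, plus strand. Capitals mark matches, on either strand, to letters searched for 5 kinds of factor.
Cdkn1b: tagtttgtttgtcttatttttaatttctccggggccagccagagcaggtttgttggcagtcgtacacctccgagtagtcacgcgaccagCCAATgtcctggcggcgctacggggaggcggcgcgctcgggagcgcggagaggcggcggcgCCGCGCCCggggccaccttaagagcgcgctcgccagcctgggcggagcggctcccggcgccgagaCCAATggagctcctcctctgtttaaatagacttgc
Gadd45a: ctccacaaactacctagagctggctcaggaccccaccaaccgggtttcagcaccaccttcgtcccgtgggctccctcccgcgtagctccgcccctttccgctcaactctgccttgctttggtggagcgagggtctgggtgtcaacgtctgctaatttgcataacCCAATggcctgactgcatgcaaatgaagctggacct
Cdkn2d: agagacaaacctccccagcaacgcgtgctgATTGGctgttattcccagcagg
Cdkn3: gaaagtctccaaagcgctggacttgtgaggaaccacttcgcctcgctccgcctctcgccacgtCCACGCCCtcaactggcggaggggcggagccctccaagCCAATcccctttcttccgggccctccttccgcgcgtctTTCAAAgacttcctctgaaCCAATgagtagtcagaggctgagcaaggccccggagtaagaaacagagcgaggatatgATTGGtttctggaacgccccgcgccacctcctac
The letters searched were AGATAA for GATA factors, CCNCNCCC for Kruppel-like factors, CCAAT, the cell cycle homology element TTTGAA, and TTTNNCGC for E2F. In 32851 RefSeq windows of 300 bases around gene starts, they occurred in 11.2%, 49.5%, 37.4%, 17.9% and 5.17% of windows, respectively. The sequences above are shorter, at 250 bases for Cdkn1b and Cdkn3, 200 for Gadd45a and 52 for Cdkn2d, so these shares are for longer stretches. The whole windows held 4 CCNCNCCC matches at Cdkn2d, 2 at Cdkn3, 1 at Cdkn1b and 0 at Gadd45a. CCAAT matches there numbered 1, 4, 3 and 1 in the same order. Upstream of Cdkn3, CCAAT matched 3 times, at positions -149, -92 and -34 from the start, and TTTGAA matched once, at -111, between 2 of them. CCAAT also matched at -161 and -35 of Cdkn1b, at -36 of Gadd45a and at -22 of Cdkn2d, and CCNCNCCC at -187 of Cdkn3 and -100 of Cdkn1b. No matches in these 4 sequences shared a base. A match is a description of the letters, not of a bound site. Of the 10 genes, 9 had a window, and Cdkn1c had none.

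Cdkn1b, which encodes p27, rose from Pro to Baso and again from Poly to Ortho. The gene lies at chr6:134920401-134925513 (mm10, plus strand) and has 2 exon blocks. Its level was 14.6, 19.9 and 16.5 FPKM in Pro, 42.3, 40.1 and 37.6 FPKM in Baso, 45.9, 43.9 and 40.6 FPKM in Poly, and 76.8, 139 and 86.3 FPKM in Ortho. All 3 Ortho libraries stood above the other 9, the Pro libraries stood below them, and Baso and Poly overlapped. The log2 fold change was 1.20 ± 0.18 (SE) in Baso vs Pro (adjusted p = 0.000211), 1.32 ± 0.18 in Poly vs Pro (adjusted p = 7.66e-05) and 2.46 ± 0.18 in Ortho vs Pro (adjusted p = 2.94e-07). The Poly vs Baso difference was 0.12, with a 95% interval from -0.29 to 0.52. Ortho exceeded Poly by 1.15 ± 0.18 (adjusted p = 0.000517). Ortho replicate 2 was the highest library, and without it the Ortho vs Poly difference was 0.89 and no longer called, as was the case when libraries were scaled to the same FPKM sum (0.96).

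Cdkn1a, which encodes p21 and is a textbook target of p53, was not called in any comparison. A transcript awaiting experimental evidence, AC167363.2, overlaps Cdkn1a on the other strand, and whether counting used strand is not given. The gene lies at chr17:29090976-29100727 (mm10, plus strand). Its level was 4.92, 6.65 and 6.96 FPKM in Pro, 11.6, 7.82 and 5.61 FPKM in Baso, 13.5, 9.91 and 5.47 FPKM in Poly, and 15.3, 10.8 and 7.33 FPKM in Ortho. The stages overlapped, except that every Ortho library exceeded every Pro library. The moderated F-test gave an adjusted p of 0.239, and the Ortho vs Pro difference of 0.72 (95% interval 0.01 to 1.43) had an adjusted p of 0.0623. With hemoglobin genes left out of the sum that scales each library, this difference was 1.15 (adjusted p = 0.00757), and with median centring 1.11 (adjusted p = 0.00852), both past the rule for a call.

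Within Baso, Poly and Ortho, replicate 1 held the most Cdkn1a and replicate 3 the least. A sum of 10 immediate early genes, such as Fos, Jun and Egr1, which cells switch on soon after a stimulus or handling, stood in the same order: 612, 458 and 281 FPKM in Baso, 777, 538 and 386 FPKM in Poly, and 755, 550 and 404 FPKM in Ortho for replicates 1, 2 and 3. Counted among these 10 were the heat shock genes Hspa1a and Hspa1b, which were low and stood highest in replicate 2 in Baso and Poly. In Pro, the sums were 406, 444 and 389 FPKM, and Cdkn1a was lowest in replicate 1. The 3 genes whose pattern over the 12 libraries was most like that of Cdkn1a were Osm (Pearson r = 0.96), Egr1 (0.95) and Ier3 (0.95). Replicate numbers paired the Baso, Poly and Ortho libraries across genes. In a fit of these 9 libraries with the replicate number as a block, the Cdkn1a difference of 0.37 in Ortho vs Baso had an adjusted p of 0.00764, against 0.369 in the fit of all 12 libraries without the block and 0.249 with the block and all 12. In the 9-library fit, Poly vs Baso had an adjusted p of 0.212 and Ortho vs Poly 0.0937. The part of handling in the Cdkn1a values was not tested.

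**Figure D2:**
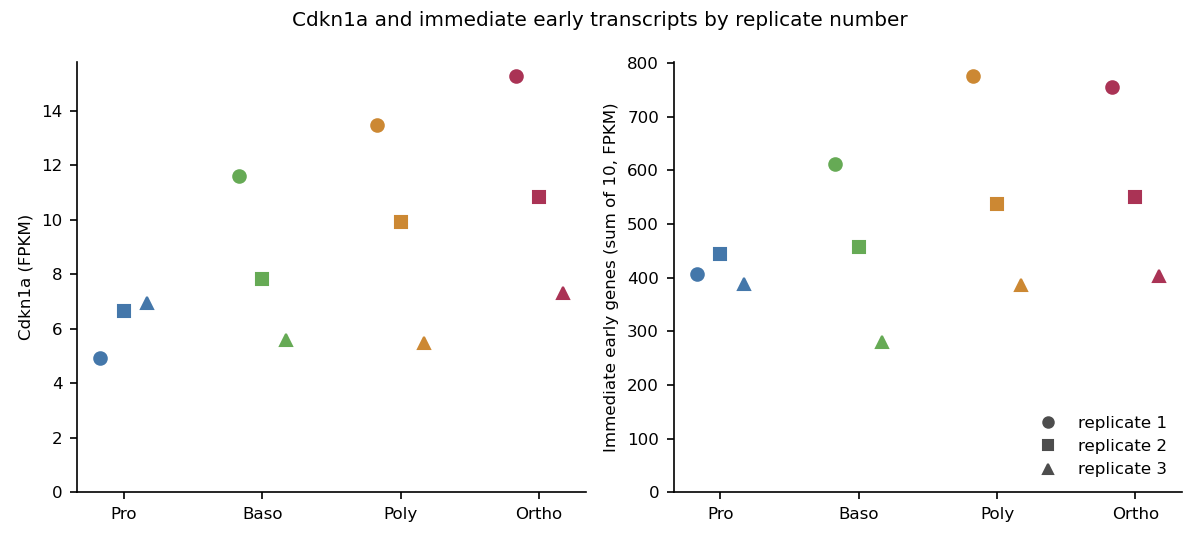
Cdkn1a (left, FPKM) and the summed FPKM of 10 immediate early genes (right) in each library, by stage, with symbols for the replicate numbers of the labels. In Baso, Poly and Ortho both measures are highest in replicate 1 and lowest in replicate 3, with Cdkn1a at 15.3 FPKM in Ortho replicate 1 and 7.33 FPKM in Ortho replicate 3, an order that Pro does not share.

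Cdkn1c, which encodes the third Cip/Kip inhibitor, p57, was near the limit of detection. It was listed at 0 to 0.724 FPKM over the 12 libraries, with overlapping stages and a value of 0 in Ortho replicate 2. An antisense gene, Gm44732, overlaps it at chr7:143458339-143461050 (mm10, minus strand), and whether the counting used strand is not given in the sources used here. Cdkn2a, the INK4 gene whose locus also encodes Arf, ranged from 0 to 0.370 FPKM, with 0 in 4 of the 12 libraries. These values do not show that either gene was absent, since the depth of the libraries is unknown.

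The INK4 genes Cdkn2c and Cdkn2d, which encode p18 and p19, were both highest in Poly and both fell in Ortho. Cdkn2c (chr4:109660876-109667189, mm10, minus strand) stood at 77.0, 72.3 and 47.1 FPKM in Pro, 94.1, 97.4 and 100.3 FPKM in Baso, 109, 110 and 121 FPKM in Poly, and 31.9, 31.1 and 36.7 FPKM in Ortho. No stages overlapped, and Ortho was lowest. From Poly to Ortho it fell by 1.74 on the log2 scale (SE 0.15, adjusted p = 3.63e-06). Baso and Poly differed from Pro by 0.60 and 0.81 (adjusted p = 0.00526 and 0.000547), short of the fold a call needed. The Poly vs Pro difference was called with hemoglobin genes left out (1.16) or with median centring (1.06). Ortho against Pro stood at -0.93 (adjusted p = 0.000144), which was called with the same FPKM sum (-1.29) and without Pro replicate 3 (-1.15), the lowest of its stage.

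Cdkn2d showed the widest swing of the group. The gene lies at chr9:21288410-21291407 (mm10, minus strand). Its level was 45.4, 23.9 and 35.7 FPKM in Pro, 138, 97.1 and 120 FPKM in Baso, 232, 218 and 182 FPKM in Poly, and 35.4, 26.2 and 46.5 FPKM in Ortho. Pro and Ortho overlapped, and both lay below every Baso and Poly library. It rose by 1.76 ± 0.24 (SE) in Baso vs Pro (adjusted p = 8.83e-05) and by 2.59 ± 0.24 in Poly vs Pro (adjusted p = 3.45e-06), then fell by 2.54 in Ortho vs Poly (adjusted p = 7.97e-06). Poly exceeded Baso by 0.83 (adjusted p = 0.0448), under the fold a call needed. Ortho and Pro differed by 0.05, with a 95% interval from -0.47 to 0.57 that holds changes in both directions. The sign of that difference turned with the same FPKM sum (-0.31), and without Pro replicate 2 (-0.19) or Ortho replicate 3 (-0.15).

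Cdkn3, the phosphatase, was highest in Baso and lowest in Ortho. The gene lies at chr14:46760541-46771669 (mm10, plus strand). Its level was 40.5, 43.0 and 38.3 FPKM in Pro, 96.8, 102 and 113 FPKM in Baso, 86.7, 84.5 and 78.9 FPKM in Poly, and 21.4, 23.0 and 17.4 FPKM in Ortho. The 4 stages did not overlap. It rose by 1.34 ± 0.10 (SE) in Baso vs Pro (adjusted p = 2.46e-06) and by 1.02 ± 0.10 in Poly vs Pro (adjusted p = 5.68e-06), and fell by 1.97 in Ortho vs Poly (SE 0.10, adjusted p = 8.41e-08) and by 2.29 in Ortho vs Baso (adjusted p = 1.72e-08). Poly against Baso stood at -0.32 (adjusted p = 0.0625). The Poly vs Pro call was lost with a pseudocount of 5 (0.95), with the same FPKM sum (0.84), without Pro replicate 3 (0.98) and without Poly replicate 1 (0.99). Ortho against Pro stood at -0.95, and was called with the same FPKM sum (-1.31) and without Ortho replicate 2 (-1.04).

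Gadd45a was the most abundant of the 8 genes in Pro and Ortho and rose in Ortho. The gene lies at chr6:67035096-67037457 (mm10, minus strand), where E230016M11Rik overlaps it on the other strand, and whether counting used strand is not given. Its level was 81.2, 76.4 and 66.7 FPKM in Pro, 105, 129 and 112 FPKM in Baso, 122, 97.9 and 84.3 FPKM in Poly, and 276, 243 and 246 FPKM in Ortho. All Ortho libraries exceeded every other library, the Pro libraries lay below them, and Baso and Poly overlapped. It rose by 1.76 ± 0.13 (SE) in Ortho vs Pro (adjusted p = 2.84e-07), by 1.34 ± 0.13 in Ortho vs Poly (adjusted p = 1.10e-05) and by 1.14 ± 0.13 in Ortho vs Baso (adjusted p = 2.98e-05). The last was not called with the same FPKM sum (0.95). Baso and Poly differed from Pro by 0.62 and 0.42 (adjusted p = 0.00186 and 0.0139), under the fold a call needed.

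Gadd45b and Gadd45g were lower than Gadd45a in every stage and moved less than it in Ortho vs Pro. Gadd45b (chr10:80930073-80932204, mm10, plus strand) ranged from 4.88 to 9.93 FPKM, with means of 5.68, 6.59, 8.99 and 8.63 FPKM in Pro, Baso, Poly and Ortho, and the stages overlapped in part. Its largest difference, 0.59 in Poly vs Pro, had an adjusted p of 0.0112, and the sign of its Ortho vs Poly difference (-0.07) turned when hemoglobin genes were left out (0.06), under median centring (0.08) and without Ortho replicate 2 (0.10). Gadd45g (chr13:51846678-51848468, mm10, plus strand) stood highest in Pro, unlike the other 7 tested genes, at 25.2, 22.2 and 15.2 FPKM, against 9.50, 14.7 and 13.0 FPKM in Baso, 9.60, 10.9 and 10.7 FPKM in Poly, and 8.33, 8.39 and 8.12 FPKM in Ortho. It fell by 1.21 on the log2 scale in Ortho vs Pro (SE 0.18, adjusted p = 6.57e-05), a call lost with a pseudocount of 5 (-0.94), when hemoglobin genes were left out (-0.75), and under median centring (-0.81). Poly against Pro stood at -0.91 and was called with the same FPKM sum (-1.08) and without Pro replicate 3 (-1.11).

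Counted by comparison, 3 of the 8 tested genes (Cdkn1b, Cdkn2d and Cdkn3) rose in Baso vs Pro, where 1.82% of all genes tested were called higher and 8.54% lower. The same 3 rose in Poly vs Pro, against backgrounds of 3.59% and 12.8%. In Ortho vs Pro, Cdkn1b and Gadd45a rose and Gadd45g fell, against 6.33% and 23.8%. None of the 8 was called by limma in Poly vs Baso, where 0.0616% of genes were called higher and 0.454% lower, although 3 of the 8 had an unadjusted p under 0.05. Among these, only Cdkn2d had an adjusted p under 0.05, and it fell short of the fold a call needed. In Ortho vs Poly, 2 rose (Cdkn1b and Gadd45a) and 3 fell (Cdkn2c, Cdkn2d and Cdkn3), against 1.05% higher and 4.81% lower. These same 5 genes moved the same way in Ortho vs Baso, against 1.16% and 7.18%. The comparisons share the libraries of the stage they have in common. In Ortho vs Pro, the median over all genes tested was -0.42, and Cdkn1b stood 2.89, Gadd45a 2.18 and Gadd45g -0.78 from it on the log2 scale. This median moved to -0.03 with hemoglobin genes left out, to -0.03 with median centring and to -0.72 with the same FPKM sum.

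**Figure D3:**
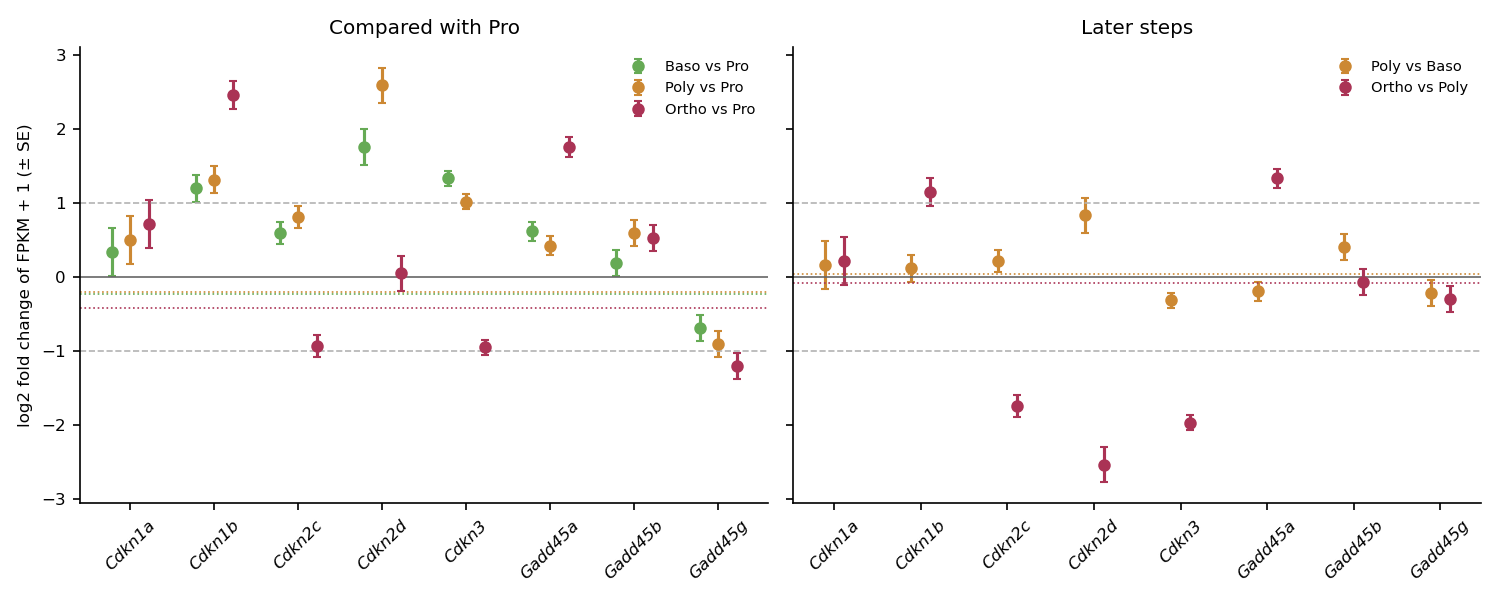
Log2 fold change of FPKM + 1 (y axis) for the 8 tested genes (x axis), against Pro on the left and for the later steps on the right, with error bars for the SE of the limma fit. Dotted lines in the same colours are the medians over all genes tested and dashed lines mark a size of 1. Cdkn2d runs from 2.59 in Poly vs Pro to 0.05 in Ortho vs Pro, and Cdkn1b and Gadd45a lie above 1 in Ortho vs Poly while Cdkn2c, Cdkn2d and Cdkn3 lie below -1.

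Shares and ratios within a library do not depend on how the library was scaled. They were formed after the values had been seen and are given without a test. The summed FPKM of 7 CDK inhibitors (the 6 above, without Cdkn3, and Cdkn2b, which stayed at or below 0.210 FPKM) was 124 ± 18.1 (SD, n = 3) in Pro, followed by 264 ± 21.9 in Baso, 377 ± 26.7 in Poly and, in Ortho, 182 ± 24.0. Unlike the shares, this sum does depend on the scaling, and it was not formed under the other scalings. Cip/Kip transcripts made up 14.2, 22.0 and 22.2% of this sum in Pro, 19.0, 19.8 and 16.6% in Baso, 14.9, 14.1 and 13.2% in Poly, and 57.8, 72.3 and 52.99% in Ortho. Ortho thus stood apart from the other stages, with most of its inhibitor transcripts of the Cip/Kip kind. Cdkn1b alone held 54.5 ± 10.9% in Ortho against 11.5 ± 0.107% in Poly, and Cdkn2d 20.3 ± 6.96% against 55.6 ± 3.07%. Among the INK4 genes, the ratio of Cdkn2d to Cdkn2c was 0.560 ± 0.215 in Pro, followed by 1.22 ± 0.235 in Baso, 1.87 ± 0.324 in Poly and, in Ortho, 1.07 ± 0.215.

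**Figure D4:**
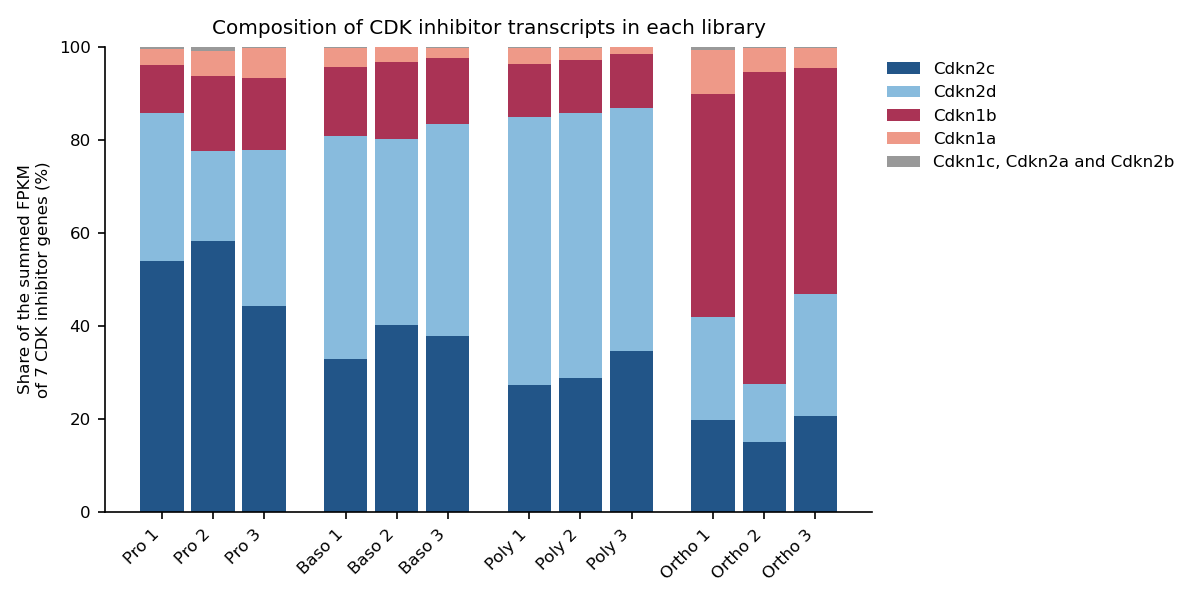
Share of the summed FPKM of 7 CDK inhibitor genes held by each gene (y axis, percent), stacked for each of the 12 libraries (x axis). The blues, Cdkn2c and Cdkn2d, hold most of each Pro, Baso and Poly bar. The reds, Cdkn1b and Cdkn1a, hold most of each Ortho bar, with Cdkn1b alone at 47.9 to 67.1%.

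The inhibitors were next set against their binding partners. Cdkn2c and Cdkn2d together stood at 0.513 ± 0.106 (SD, n = 3) of Cdk4 and Cdk6 in Pro, followed by 3.08 ± 0.364 in Baso, 5.21 ± 0.557 in Poly and, in Ortho, 0.985 ± 0.160, on the FPKM scale. The ratio of Cdkn1b to Cdk2 was 0.291 ± 0.0618 in Pro, followed by 0.901 ± 0.181 in Baso, 0.836 ± 0.119 in Poly and, in Ortho, 3.77 ± 2.12, with library values of 2.27, 6.20 and 2.84. Ortho replicate 2 thus held the highest ratio, and the other Ortho libraries still exceeded all those of earlier stages. Cdkn1b relative to Skp2, the F-box protein that marks p27 for degradation, was 1.80 ± 0.307 in Pro and 18.6 ± 8.39 in Ortho. Cdkn3 relative to Cdk1 ranged from 0.295 to 0.696 in Pro, 1.28 to 1.45 in Baso, 0.562 to 1.13 in Poly and 0.756 to 1.37 in Ortho. In the Gadd45 family, Gadd45a held 74.0 ± 2.53% of the summed FPKM in Pro and 93.8 ± 0.518% in Ortho, and Gadd45g 20.4 ± 2.62% and 3.06 ± 0.210%. Gadd45a relative to Pcna was 0.114 ± 0.0114 in Pro, followed by 0.238 ± 0.0326 in Baso, 0.263 ± 0.0454 in Poly and, in Ortho, 1.52 ± 0.0544.

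Genes around these members were counted in Ortho vs Pro from lists of the pathway. Of 12 CDKs and cyclins, 9 fell, with a list median of -1.51, against -0.42 over all genes tested, of which 23.8% were called lower and 6.33% higher, and 1 was called higher without Pro replicate 2, with a pseudocount of 0.1, and under median centring or scaling that omits hemoglobin genes. Ccne1, the cyclin E of CDK2, fell by 3.01 on the log2 scale (adjusted p = 1.80e-09), and the mitotic kinase gene Cdk1 by 2.03 (adjusted p = 0.000127). Cdk4, the INK4 partner, fell already in Baso vs Pro, by 1.61. Of 8 tested genes of other CDK control, 6 fell, among them Cdc25c, a phosphatase that activates CDK1 (-1.48), and Cdk7, of the CDK-activating kinase (-1.34), against the same 23.8% of all genes, but 1 of 8 fell and 1 rose with hemoglobin genes left out or with median centring, and 2 fell with a pseudocount of 5 and 3 without Pro replicate 3. Of 9 ubiquitin ligase subunits for p21 and p27, 6 fell, again against 23.8%, among them Dtl (-1.97) and Ddb1 (-1.26), but 1 fell with either of these scalings. None of the 3 pocket protein genes was called by limma in Ortho vs Pro, although 3 of 3 had an unadjusted p under 0.05. An adjusted p under 0.05 was reached by 2 of 3. Rbl1 stood at -0.97 and Rb1 at -0.72, short of the fold a call needed. Of the 3, 1 was called lower without Pro replicate 2 or with a pseudocount of 0.1, and 2 with the same FPKM sum. Rb1, the retinoblastoma gene, fell by 1.37 in Ortho vs Poly.

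Of 20 tested genes of p53 and its targets, 2 rose and 4 fell in Ortho vs Pro, shares near the 6.33% higher and 23.8% lower of all genes, and the list median of -0.42 was that of all genes. Trp53inp1, a stress protein gene, rose by 1.42, and Phlda3, an Akt repressor gene, fell by 1.45 from 3.73 to 0.737 FPKM. With hemoglobin genes left out or median centring, the counts were 5 higher and 1 lower, with the same FPKM sum 1 higher and 7 lower, and 4 were higher without Ortho replicate 2 or with a pseudocount of 0.1. Trp53 itself stood at 87.2 FPKM in Pro and 39.3 FPKM in Ortho (-1.13, adjusted p = 3.74e-07), and the ligase gene Mdm2 at -0.31 (adjusted p = 0.0682). Of 6 Gadd45 partners, 2 fell, Pcna by 1.97 and Gadd45gip1 by 1.40, a share near the 23.8% of all genes, and 1 fell with hemoglobin genes left out. Of the 3 FOXO factors, which can raise Cdkn1b and Gadd45a transcription in other cells, Foxo3 rose by 1.17 and Foxo4 by 1.04, against 6.33% of all genes called higher, but 0 of 3 were called with the same FPKM sum and 1 without Pro replicate 3 or with a pseudocount of 5.

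**Figure D5:**
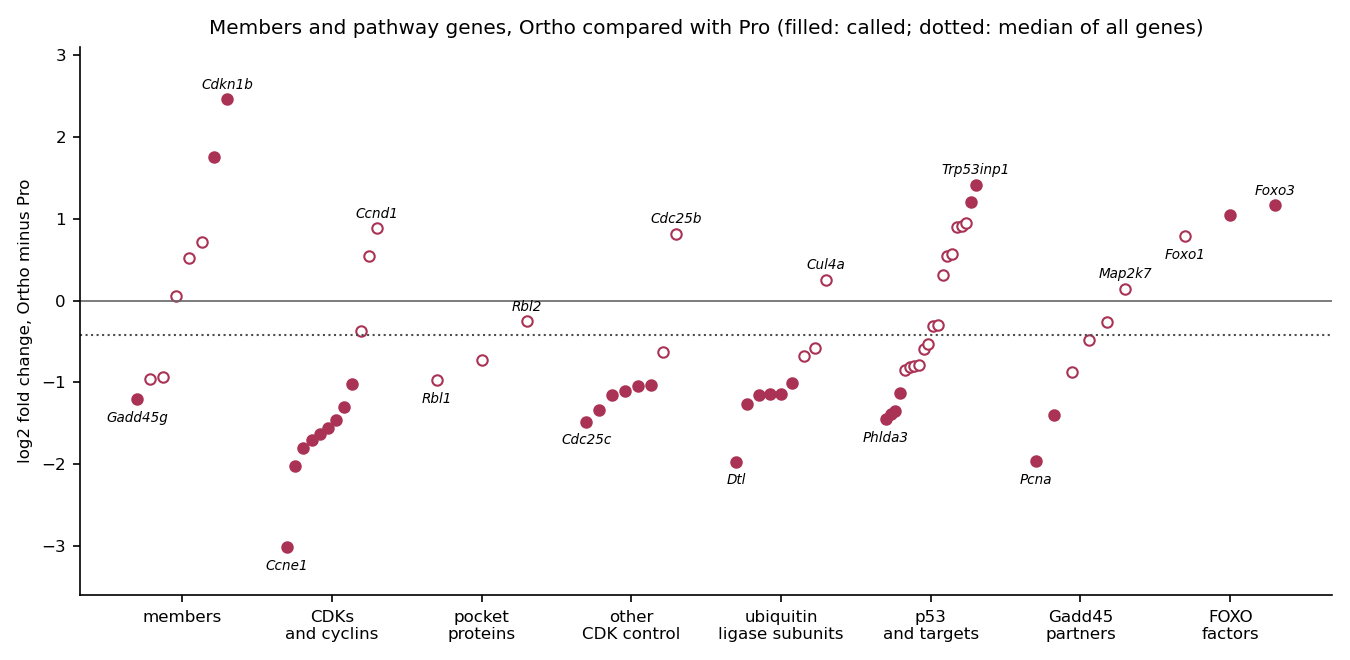
Log2 fold change in Ortho vs Pro (y axis) for the 8 tested members and the tested genes of 7 pathway lists (x axis), 1 point a gene, ordered by value. Filled points were called, the dotted line is the median of all genes (-0.42), and the lowest and highest gene of each list are named, from Ccne1 at -3.01 to Cdkn1b at 2.46.

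Among 6011 genes with a mean of at least 10 FPKM, those most like each member over the 12 libraries were listed by the Pearson correlation of log2(FPKM + 1). With hemoglobin genes left out of the scaling, the order changed for several members: Ube2c and Nusap1 ranked 4 and 16 for Cdkn3, Nudt4 and Cenpb 12 and 33 for Cdkn2c, and Depdc1b, Agrn and Mpp2 12, 17 and 6 for Cdkn2d, while the first gene was the same for Cdkn1a, Cdkn1b, Gadd45a and Gadd45g. The correlations describe a shared course over stages and libraries and carry no p. Both genes of a pair were read in the same libraries, whose hemoglobin share ran from 6.98% in Pro replicate 3 to 52.6% in Ortho replicate 2. Cdkn1b was most like Bnip3l (r = 0.99), the mitophagy receptor gene of maturing erythroblasts, Adipor1 (0.98) and Psme3 (0.98). Gadd45a was most like Serinc1, Snx15 and Yipf4 (each 0.98). Cdkn3 was most like Ube2c, the ubiquitin-conjugating enzyme of the anaphase-promoting complex, Nde1 and the spindle gene Nusap1 (0.99, 0.99 and 0.98). Cdkn2c was most like Nudt4, Tspan33 and Cenpb (0.99, 0.99 and 0.98), and Cdkn2d like Depdc1b, Agrn and Mpp2 (each 0.95). Gadd45b was most like Gramd1a (0.91), Kctd12 and Wdr1 (each 0.90), and Gadd45g like Znhit2 (0.98), Vps16 (0.97) and Micu2 (0.96). Among the members themselves, Cdkn2c and Cdkn3 (0.93) and Cdkn1b and Gadd45a (0.89) had the highest correlations, and Cdkn1b and Gadd45g the lowest (-0.87).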

How the data were processed

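Total RNA of 12 sorted mouse erythroblast libraries was sequenced, 3 per stage. The labels give Trizol extraction and a NEBNext Ultra kit, the study's methods another lysis and a KAPA kit. The authors trimmed reads with Cutadapt and Trimmomatic, aligned them with Hisat2 to mm10, and counted them with FeatureCounts. FPKM values were deposited by the authors, 1 column a library; the tool that made them, its annotation and all versions are not given in the sources used here. Whole fragments could not be read back from the low values, so the depth is unknown and no counting interval is given.

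The summed FPKM was 505624 to 691033 per library. Values were tested as log2(FPKM + 1) with limma 3.58.1 in R 4.3.3 (variance trend, all 12 libraries in 1 model, two-sided, Benjamini-Hochberg over the 12994 genes with at least 1 FPKM in at least 3 libraries). A fold change on this scale understates that of low genes. Calls required adjusted p under 0.05 together with an absolute log2 change of 1 or more. One symbol with 2 identifiers (Map2k7) was read from the higher. On simulated data, 96.5% of 200 genes changed by 1.5 in Ortho vs Pro were recovered among 12994 genes. The simulation used independent normal noise and changed only genes above a low level. It held no pairing of replicate numbers and no shift of the median, so the rate may not hold for these libraries. The members and lists were chosen with earlier results of these data known. Named were all members, the 3 most alike genes of each tested one, and the 2 genes of each list with the largest change in Ortho vs Pro; Cdk4, Trp53, Mdm2 and the partner genes in ratios were added after values were seen.

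Replicate numbers were checked for pairing by the correlation, across genes, of deviations from stage means. Same-numbered Baso, Poly and Ortho libraries correlated at 0.156 to 0.319, above the set limit of 0.1 in each pair, and Pro libraries with the others at 0.00524 to 0.0968. Alternatives were other pseudocounts (0.1 and 5), filters and scalings (the same FPKM sum, that sum without hemoglobin genes, median centring), no variance trend, only the 2 stages compared, a replicate block, and leaving out each library. Gene positions are from GENCODE M21 on mm10 and sequences from RefSeq GRCm38.p6.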

Additional observations from a re-analysis of the deposited data

How the results depend on the processing

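Of all genes tested, a pseudocount of 5 left 598 called in Baso vs Pro, 1069 in Poly vs Pro, 2088 in Ortho vs Pro, 21 in Poly vs Baso, 439 in Ortho vs Poly and 621 in Ortho vs Baso, against 1347, 2130, 3915, 67, 762 and 1084 with a pseudocount of 1, and a pseudocount of 0.1 gave 122 in Poly vs Baso. Scaled to the same FPKM sum, 5 members were called in Ortho vs Pro instead of 3, Cdkn2c and Cdkn3 being added. Leaving out each library in turn gave 1144 to 1630, 2045 to 2483, 3772 to 4219, 49 to 87, 744 to 785 and 1013 to 1184 calls in the 6 comparisons, and 3 or 4 members in Ortho vs Pro. The share of calls that were higher in Ortho vs Pro was 21.02%, and 63.4% with hemoglobin genes left out, 61.6% with median centring and 6.20% with the same sum; for Baso vs Pro these were 17.6, 53.9, 57.5 and 8.76%, for Poly vs Pro 21.9, 64.1, 56.9 and 10.5%, for Ortho vs Poly 18.0, 28.6, 31.0 and 9.44%, and for Ortho vs Baso 13.9, 28.5, 21.7 and 6.46%.

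Signs turned only for differences that were not called. Cdkn2d in Ortho vs Pro was -0.31 with the same sum and -0.19 to 0.26 over the left-out libraries, Gadd45b in Ortho vs Poly was 0.0612 with hemoglobin genes left out, 0.0813 with median centring and -0.16 to 0.10 over the left-out libraries, and Cdkn1a ran from -0.10 to 0.48 in both Poly vs Baso and Ortho vs Poly. With the replicate number as a block, 3, 3, 3, 0, 5 and 5 members and 1358, 2146, 3931, 69, 763 and 1087 genes were called in the 6 comparisons, in the order above, and no call of a member changed. The cause of these changes was not tested. Depth is unknown, 3 libraries a stage limit the precision, and neutrophil transcripts moved with stage.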
